A study of Homo sapiens with 12 samples.

Results

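The 8 genes described here encode the mucins MUC1, MUC4, MUC13, MUC16 and MUC20, which are anchored in the cell membrane, and MUC5AC, MUC5B and MUC6, which are secreted. They were chosen by symbol from a table of read counts that holds 55773 gene entries, and all 8 symbols were found, once each. The set was drawn up with the high MUC5AC counts of AG-120 cells already known. For MUC5AC, the comparison of AG-120 with vehicle cells, and every comparison that contains it, is therefore given as a description with no p-value.

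Poly(A) RNA came from RBE cells, an established human cholangiocarcinoma (bile duct cancer) line with mutant IDH1, in 12 libraries that form 4 groups of 3. AG-120 plus Nutlin cells had 22 days of 5 µM AG-120 and then 72 hours of 5 µM Nutlin. Vehicle plus Nutlin cells had 22 days of DMSO and then the same Nutlin treatment. AG-120 cells and vehicle cells had the 22 days of AG-120 or DMSO and then, by their titles, DMSO in place of Nutlin. AG-120 (ivosidenib) inhibits mutant IDH1, the source of the metabolite 2-HG. Nutlin inhibits MDM2, the ubiquitin ligase that keeps p53 low, and so activates p53. All libraries came from a single cell line, and the labels do not say that the replicates of a group were separate cultures. The p-values then measure only how far these samples spread, which may be technical.

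Mucins are large glycoproteins whose repeat domains carry dense chains of O-linked sugars. Gel-forming mucins leave the cell from storage granules and join end to end into mucus. Membrane mucins stay on the surface that faces a duct or lumen and shield it, and some of them signal through a short tail inside the cell. MUC5AC is a mucin of the stomach surface and the airway, and it is known as a product of many bile duct and pancreatic cancers.

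Libraries held between 16840161 and 27499433 counts, with a median of 19221201. MDM2, a p53 target, stood at 3343 ± 16.0 CPM (read counts scaled to a common library size) in AG-120 plus Nutlin cells, 2847 ± 695 in vehicle plus Nutlin cells, 163 ± 26.5 in AG-120 cells and 146 ± 6.97 in vehicle cells (mean ± SD, n = 3). All 8 epithelial and bile duct markers examined had counts in every group, and their summed level lay between 4974 and 8208 CPM. CPM values are scaled by the trimmed mean of M values (TMM). Of the 12 libraries, vehicle plus Nutlin replicates 2 and 3 and AG-120 replicate 1 had stood apart in earlier results of these data. Some of the results that rest on them are also given without them. The set without these 3 libraries leaves 1 vehicle plus Nutlin library, which is assumed to vary like the others. Across 12320 genes, the deviation of a library from the mean of the other libraries of its group was set against transcript length. The Spearman correlation was 0.356, 0.206 and -0.349 in vehicle plus Nutlin replicates 1, 2 and 3. The same correlation was 0.443, -0.281 and -0.416 in AG-120 replicates 1, 2 and 3, and it lay between -0.078 and 0.096 in the other 6 libraries.

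All 8 mucins were scarce in this line. Together they took 1.43 to 1.70 CPM, here unscaled, in AG-120 plus Nutlin libraries and 0.707 to 1.42 in vehicle plus Nutlin libraries. They took 11.6 to 16.2 CPM, unscaled, in AG-120 libraries and 5.31 to 5.74 in vehicle libraries. Only MUC5AC and MUC1 had counts in all 12 libraries, with sums of 644 and 513. MUC13 summed to 163 counts and was at 0 in 5 libraries. The other members summed to 14 counts for MUC4, 13 for MUC5B, 11 for MUC16, 9 for MUC20 and 2 for MUC6. MUC1, MUC5AC and MUC13 passed the filter on low counts that left 15691 genes for testing. They passed through the groups in which they were high, so how many of the tested members differ says nothing about the set.

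**Figure D1:**
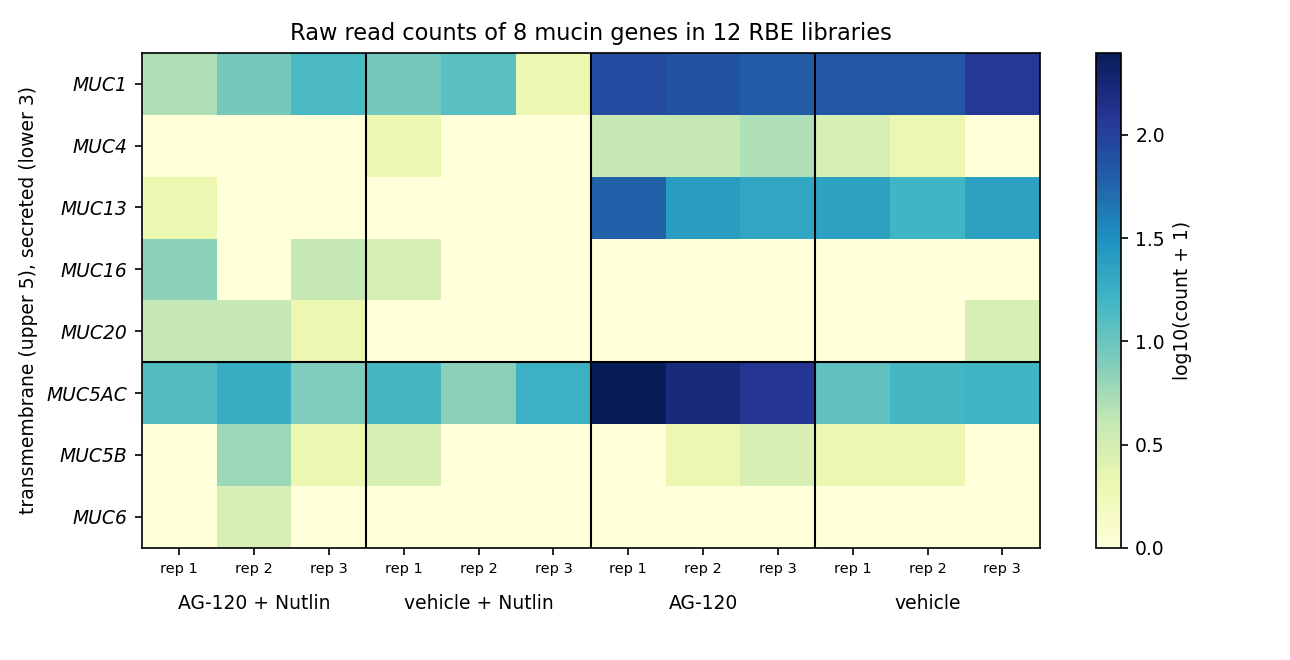
Counts of the 8 mucins in each of the 12 libraries, with mucins down the page, libraries across it in their 4 groups, and darker colour for a higher count, as log10 of the count plus 1. MUC5AC is darkest in the 3 AG-120 libraries (249, 163 and 121 counts), MUC1 and MUC13 are dark in the AG-120 and vehicle libraries, and the other 5 members hold at most 6 counts in any library.

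MUC5AC, a gel-forming mucin, was high in AG-120 cells and low in the other 3 groups. The gene lies on chromosome 11 at 1151580 to 1222364 (hg19). It had 12, 17 and 7 counts in AG-120 plus Nutlin replicates 1, 2 and 3, and 14, 6 and 16 in vehicle plus Nutlin cells. It had 249, 163 and 121 counts in AG-120 cells, against 10, 14 and 15 in vehicle cells. Every AG-120 library therefore lay far above all 9 others, and those 9 overlapped across their 3 groups. On the CPM scale its level was 0.658 ± 0.221 in AG-120 plus Nutlin cells, 0.595 ± 0.206 in vehicle plus Nutlin cells, 8.35 ± 2.17 in AG-120 cells and 0.603 ± 0.164 in vehicle cells (SD, n = 3).

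Without Nutlin, the fitted MUC5AC level in AG-120 cells was 14.0-fold that in vehicle cells, a log2 difference of 3.81 with a standard error of 0.32. Of all genes tested in that comparison 0.0510% were called, and this is the comparison for which MUC5AC was chosen, so nothing is read from the share. MUC5AC made up 57.4% to 63.2% of the counts of all 8 mucins in AG-120 libraries and 9.71% to 14.1% in vehicle libraries. The log2 difference lay between 3.59 and 4.02 under every alternative run, and it was 3.59 without AG-120 replicate 1, the library whose deviations rose most with transcript length, and 3.60 without the 3 libraries that stand apart. MUC5AC has a long transcript (17448 bases). Among the 556 tested genes with a transcript of at least 10000 bases, the median log2 difference between AG-120 and vehicle cells was 0.11, and the values ran from -3.06 to 3.81, with MUC5AC at the top and the next gene at 3.48. MUC5AC was chosen for this rise, so nothing is read from its place. The part of transcript length in its value was not tested.

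With Nutlin present, no difference in MUC5AC between AG-120 and vehicle cells was detectable. The 3 libraries of each group summed to 36 counts in AG-120 plus Nutlin cells and 36 in vehicle plus Nutlin cells, a ratio of 1.10 after scaling, with a 95% counting interval of 0.670 to 1.79. The log2 difference was 0.13 (SE 0.39), with an adjusted p of 0.868 by edgeR's quasi-likelihood test. Under the alternatives it lay between -0.14 and 0.37, with adjusted p between 0.684 and 0.9995. The -0.14 came without the 3 libraries that stand apart, which leaves 1 vehicle plus Nutlin library. In this comparison 2.36% of all genes tested were called (0.433% higher and 1.93% lower), and none of the 3 tested mucins was, with 0 at an unadjusted p under 0.05 and 0 by DESeq2.

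Along the Nutlin axis, MUC5AC was 12.5-fold lower in AG-120 plus Nutlin cells than in AG-120 cells (log2 -3.64, SE 0.32). Between vehicle plus Nutlin and vehicle cells its log2 difference was 0.03 (SE 0.39), and the 95% counting interval of the ratio ran from 0.645 to 1.69. The difference between these Nutlin responses was -3.67 (SE 0.52) on the log2 scale, in a comparison that called 0.363% of all genes (0.0319% higher and 0.331% lower). All of these values share the AG-120 or vehicle libraries with the comparison that chose the gene.

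**Figure D2:**
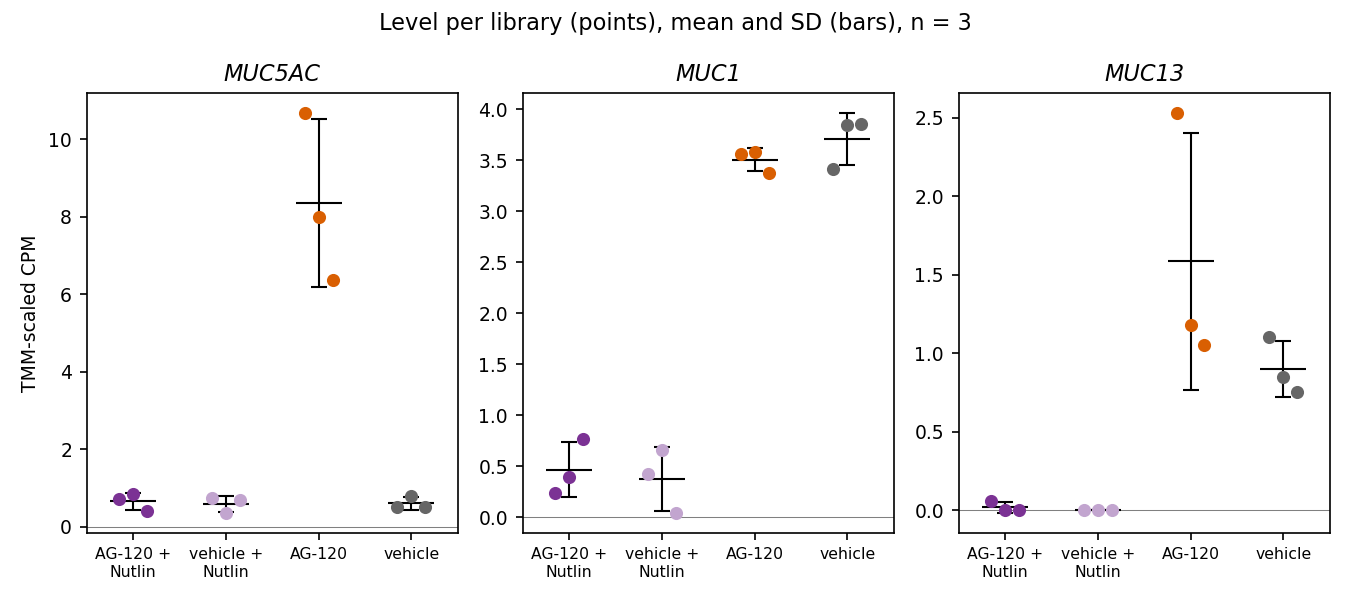
Level of MUC5AC, MUC1 and MUC13 in TMM-scaled CPM on linear axes that differ between genes, with a point for each library a line for the mean and bars for the SD of 3 libraries. MUC5AC averages 8.35 CPM in AG-120 cells and 0.595 to 0.658 CPM in the other groups, while MUC1 and MUC13 are low in both groups with Nutlin.

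The other secreted members were close to absent. MUC5B, the main gel-forming mucin of airway, saliva and bile, lies next to MUC5AC at 1244296 to 1283406. It had 0, 5 and 1 counts in AG-120 plus Nutlin cells, 2, 0 and 0 in vehicle plus Nutlin cells, 0, 1 and 2 in AG-120 cells and 1, 1 and 0 in vehicle cells. MUC6, a mucin of the stomach glands at 1012821 to 1036706, had 2 counts in AG-120 plus Nutlin replicate 2 and 0 in the other 11 libraries. No difference between groups was detectable for either at this depth. MUC2, MUC5AC, MUC5B and MUC6 are related in sequence, and how reads that match more than 1 of them were counted is not given in the sources used here. Values of 3 tested neighbours on chromosome 11, chosen after they were seen, stand beside the 3.81 of MUC5AC. AP2A2, which encodes an adaptor subunit of clathrin coats, had a log2 difference of 0.24 between AG-120 and vehicle cells. The same difference was -0.15 for MUC2 and 0.10 for TOLLIP, which encodes an inhibitor of Toll-like receptor signalling.

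MUC1 (chromosome 1, 155158300 to 155162707, hg19), a membrane mucin with a signalling tail, fell with Nutlin in both pretreatments. It had 4, 8 and 13 counts in AG-120 plus Nutlin cells and 8, 11 and 1 in vehicle plus Nutlin cells. It had 83, 73 and 64 counts in AG-120 cells, against 68, 68 and 112 in vehicle cells. The 6 libraries with Nutlin all lay below the 6 without it, and AG-120 and vehicle libraries overlapped, both with and without Nutlin. In CPM the level was 0.467 ± 0.269 in AG-120 plus Nutlin cells, 0.375 ± 0.311 in vehicle plus Nutlin cells, 3.51 ± 0.113 in AG-120 cells and 3.70 ± 0.254 in vehicle cells (SD, n = 3).

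With Nutlin, MUC1 was 10.4-fold lower in vehicle plus Nutlin cells than in vehicle cells (log2 -3.38, SE 0.49, edgeR adjusted p = 7.23e-05). This call was made for 53.9% of all genes tested, and for a decrease in 27.1%. In AG-120 plus Nutlin cells MUC1 was 7.45-fold lower than in AG-120 cells (log2 -2.90, SE 0.48, edgeR adjusted p = 0.000185), where 55.7% of all genes were called and 28.8% as lower. Of the 7 members other than MUC5AC, 2 were tested and both were called in each Nutlin response. Without vehicle plus Nutlin replicate 3, which had 1 MUC1 count, the first log2 difference was -2.78 (edgeR adjusted p = 7.04e-06). Without replicate 2 it was -4.06 (edgeR adjusted p = 4.49e-05). Without the 3 libraries that stand apart, which leaves 1 vehicle plus Nutlin library, it was -3.13. Between AG-120 plus Nutlin and vehicle plus Nutlin cells MUC1 differed by 0.40 on the log2 scale (SE 0.61, edgeR adjusted p = 0.725), and the 95% counting interval of the ratio ran from 0.730 to 2.60. That difference was -0.20 without vehicle plus Nutlin replicate 3 and 1.08 without replicate 2 of that group. Between AG-120 and vehicle cells the difference was -0.08 (SE 0.38), with a counting interval of 0.784 to 1.14.

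MUC13 (chromosome 3, 124624289 to 124672663), a membrane mucin best known from the intestine and colon, was nearly lost from the libraries with Nutlin. It had 1, 0 and 0 counts in AG-120 plus Nutlin cells and 0 in all 3 vehicle plus Nutlin libraries. It had 59, 24 and 20 counts in AG-120 cells, against 22, 15 and 22 in vehicle cells. No library with Nutlin reached any library without it. The level was 1.59 ± 0.818 CPM in AG-120 cells and 0.903 ± 0.180 CPM in vehicle cells (SD, n = 3), groups that overlapped.

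In vehicle cells MUC13 stood 17.4-fold above a floor of 3 counts summed over the 3 vehicle plus Nutlin libraries, and edgeR gave its fall an adjusted p of 0.000188. A fold over a floor leaves out the counting error of the higher group. In AG-120 plus Nutlin cells, with 1 count, the ratio to AG-120 cells with 103 counts was 0.0113, with a 95% counting interval of 0.000283 to 0.0644 and an edgeR adjusted p of 8.46e-05. Both calls held under all alternatives run, with adjusted p of at most 0.00203. Between AG-120 and vehicle cells the log2 difference was 0.83 (SE 0.46), and it was 0.31 without AG-120 replicate 1, which held 59 of the 103 counts, and 0.32 without the 3 libraries that stand apart. In the groups with Nutlin, 1 count against 0 allows no comparison of AG-120 with vehicle.

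**Figure D3:**
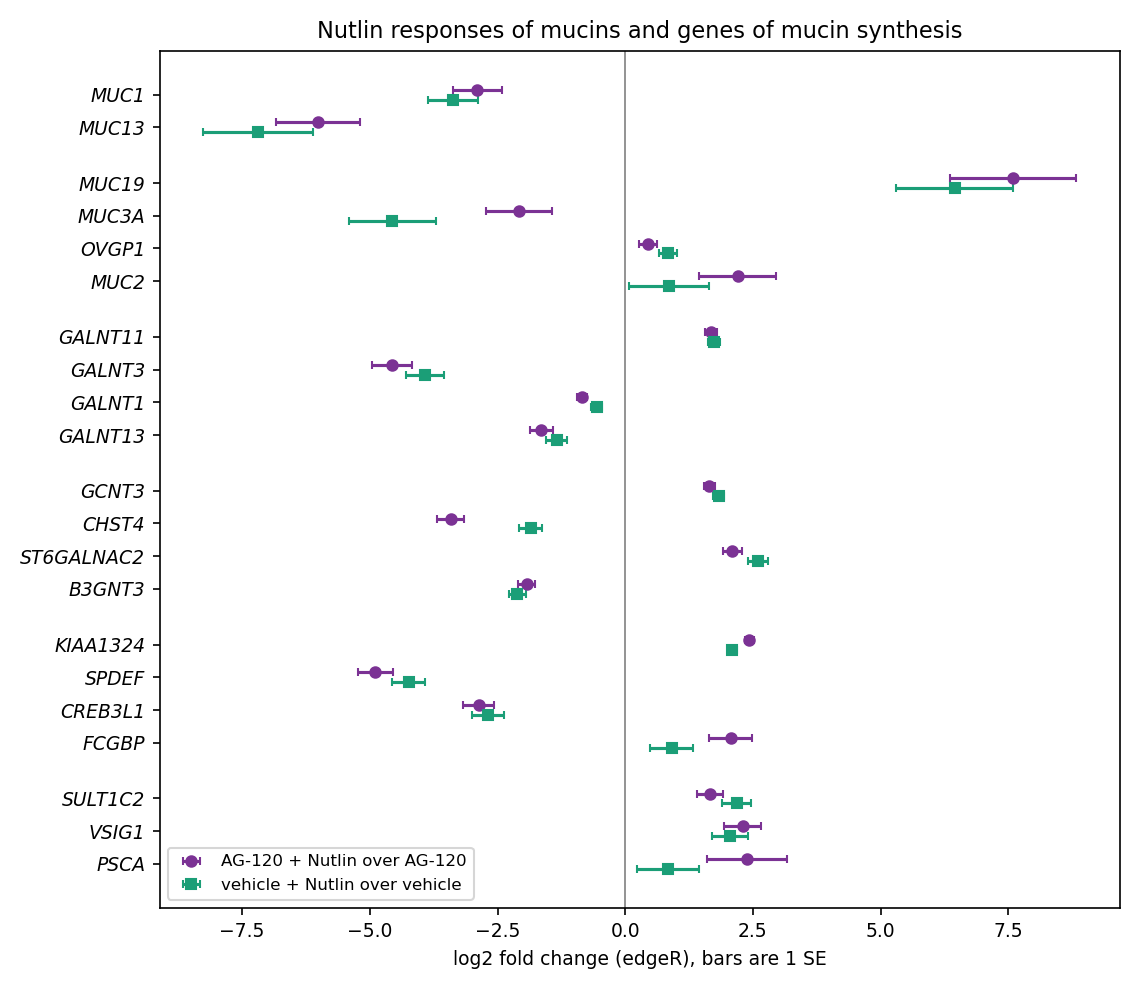
Fitted log2 fold change with Nutlin for MUC1, MUC13 and the named genes of the other mucins, O-glycan enzymes, mucus packaging and gastric pit lists, with circles for AG-120 plus Nutlin over AG-120 cells, squares for vehicle plus Nutlin over vehicle cells and bars of 1 SE. MUC1 and MUC13 lie left of 0 in both pretreatments (-2.90 and -6.02 in AG-120 cells, -3.38 and -7.19 in vehicle cells), MUC19 lies farthest right, and the positions of MUC13 and MUC19, near 0 counts in some groups, depend on the prior count of the fit.

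The set of RefSeq promoters used here held promoters for MUC1, MUC4, MUC13 and MUC16, 4 of the 8 members. Those of MUC1 and MUC13, the members that fell with Nutlin, are printed as the 250 bases before the start site on the strand of the gene (GRCh38.p14), because their levels moved together. Capitals mark matches to the letters TATAAA (the TATA box), GGGCGG (a box bound by SP1), TGANTCA (an AP-1 site) and TGACGTCA (a cyclic AMP response element), searched on both strands together with the p53 half-site. The MUC1 window is chr1:155192916-155193165 on the minus strand, and the MUC13 window is chr3:124934752-124935001 on the minus strand.
MUC1: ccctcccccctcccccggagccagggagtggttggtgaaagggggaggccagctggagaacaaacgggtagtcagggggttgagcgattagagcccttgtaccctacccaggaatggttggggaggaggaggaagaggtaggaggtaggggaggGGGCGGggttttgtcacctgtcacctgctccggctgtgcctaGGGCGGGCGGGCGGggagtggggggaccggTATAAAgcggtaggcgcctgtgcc
MUC13: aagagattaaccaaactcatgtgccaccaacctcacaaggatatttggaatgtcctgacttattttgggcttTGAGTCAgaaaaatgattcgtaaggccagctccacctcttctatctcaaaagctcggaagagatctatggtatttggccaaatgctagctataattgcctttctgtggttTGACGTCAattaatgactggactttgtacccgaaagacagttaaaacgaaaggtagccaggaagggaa
The stretches differed in composition, with 66.0% G and C for MUC1 and 41.6% for MUC13. Positions are counted from the start site, which follows the printed stretch. MUC1 had a TATA box at -24 to -19 and boxes of the SP1 kind that begin at -96, -54, -50 and -46, of which the last 3 overlap. RefSeq has a second start for MUC1, from which the same TATA box lies at -30 to -25 and the SP1 boxes begin at -102, -60, -56 and -52. MUC13 had neither, and instead an AP-1 match at -178 to -172 and a cyclic AMP response element at -68 to -61. Among 35116 RefSeq promoter windows of 300 bases, 11.5% held the TATA box, 45.0% the SP1 box, 7.71% the AP-1 site, 1.85% the cyclic AMP response element and 6.63% the p53 half-site. The p53 half-site was not found in the MUC1 and MUC13 stretches, which says only that these letters are not in this window. Of the promoters not printed, that of MUC4 held 1 SP1 box, at -49 to -44. MUC16 has 2 promoter windows: the first held an SP1 box at -47 to -42 and a p53 half-site at 35 to 44, and the second an AP-1 match at -136 to -130 and a p53 half-site at -85 to -76. A match is a description of letters and not a site of binding.

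MUC4, MUC16 and MUC20 had too few counts for the fit, and their values are given as counts. MUC4 (chromosome 3, 195473636 to 195539148), a membrane mucin that binds the receptor ERBB2, had 0 counts in all 3 AG-120 plus Nutlin libraries and 1, 0 and 0 in vehicle plus Nutlin cells. It had 3, 3 and 4 counts in AG-120 cells, against 2, 1 and 0 in vehicle cells, so each AG-120 library stood above every vehicle library by 1 to 4 counts. The ratio of AG-120 to vehicle cells was 3.55, with a 95% counting interval of 0.913 to 20.1. In AG-120 cells MUC4 stood 2.87-fold above the floor of 3 counts for AG-120 plus Nutlin cells.

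MUC16 (chromosome 19, 8959520 to 9092018), which carries the tumour antigen CA125, had all of its 11 counts in libraries with Nutlin. It had 6, 0 and 3 counts in AG-120 plus Nutlin cells and 2, 0 and 0 in vehicle plus Nutlin cells, and 0 in all 6 libraries without Nutlin. The counts in AG-120 plus Nutlin cells came to 3.49-fold the floor of 3 counts for AG-120 cells, although 1 of the 3 libraries held none. MUC20 (chromosome 3, 195447753 to 195467994), a mucin reported to bind the receptor MET, had 3, 3 and 1 counts in AG-120 plus Nutlin cells, 0 in vehicle plus Nutlin cells, 0 in AG-120 cells and 0, 0 and 2 in vehicle cells. All 3 AG-120 plus Nutlin libraries lay above every vehicle plus Nutlin and AG-120 library, the lowest of them by 1 count. Their summed 7 counts came to 2.55-fold the floor of 3 counts for vehicle plus Nutlin cells and 2.72-fold that for AG-120 cells. The MUC20 entry overlaps LINC00969, which had 35 to 222 counts per library, and the use of strand in counting is not given in the sources used here, so the reads of these 2 entries cannot be told apart with certainty. With no filter on low counts, in a fit of 29603 genes, none of these 3 mucins, MUC5B or MUC6 was called by edgeR in either Nutlin response or in AG-120 with Nutlin. Over all genes that fit called 8786 between vehicle plus Nutlin and vehicle cells and 9004 between AG-120 plus Nutlin and AG-120 cells. It called 1272 between AG-120 plus Nutlin and vehicle plus Nutlin cells. The nearest in that fit were MUC16, MUC4 and MUC20 in AG-120 cells with Nutlin against AG-120 cells, at adjusted p of 0.0580, 0.0695 and 0.0940.

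Per kilobase of the longest coding transcript, a rough scale for comparing levels of different genes, MUC1 had the highest mean in every group. The annotation behind the counts is not given in the sources used here, so the lengths that were counted may differ. In AG-120 plus Nutlin cells MUC1 had 0.112 ± 0.0645 CPM per kilobase, MUC20 0.0455 ± 0.0222 and MUC5AC 0.0377 ± 0.0127, levels whose spreads run close to or into each other. In vehicle plus Nutlin cells MUC1 had 0.0900 ± 0.0746 and MUC5AC 0.0341 ± 0.0118 CPM per kilobase, which were not separated beyond their spread. In AG-120 cells MUC1 had 0.840 ± 0.0271, MUC13 0.551 ± 0.284 and MUC5AC 0.479 ± 0.124 CPM per kilobase, and neither MUC1 and MUC13 nor MUC13 and MUC5AC were separated beyond their spread. In vehicle cells the order was MUC1 at 0.888 ± 0.0609, MUC13 at 0.314 ± 0.0623 and MUC5AC at 0.0346 ± 0.00939 CPM per kilobase (SD, n = 3), each clear of the next.

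The genes whose pattern over the 12 libraries was nearest to that of MUC5AC were found by the root mean square difference of centred log2 CPM, which has a median of 1.62 over all genes tested. They were ITGAD at 0.83, which encodes an integrin alpha chain of leukocytes, NPC1L1 at 0.95, a cholesterol transporter of gut and liver, TMEM213 at 0.99, AGR2 at 1.00 and the processed transcript AE000661.37 at 1.00. ITGAD, TMEM213 and AE000661.37 had few counts, at most 16, 31 and 28 in any library, so the prior count added before the log2 bears on their patterns. AGR2 is a disulfide isomerase of the endoplasmic reticulum that gel-forming mucins need for folding in mouse intestine. It had 4, 1 and 5 counts in AG-120 plus Nutlin cells, 1, 0 and 4 in vehicle plus Nutlin cells, 29, 23 and 21 in AG-120 cells and 10, 3 and 12 in vehicle cells. The AG-120 libraries were the highest for AGR2 too. Its level was 0.195 ± 0.129 CPM in AG-120 plus Nutlin cells, 0.0746 ± 0.0875 in vehicle plus Nutlin cells, 1.16 ± 0.0728 in AG-120 cells and 0.361 ± 0.172 in vehicle cells (SD, n = 3). NPC1L1 averaged 5.05 CPM in AG-120 plus Nutlin cells, 3.09 in vehicle plus Nutlin cells, 13.4 in AG-120 cells and 4.62 in vehicle cells. These genes were picked for likeness in the same libraries, so their values carry no test.

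The patterns nearest to MUC1 were closer, at 0.35 to 0.40 against a median of 1.66. The first 3 were CREB3L1 at 0.35, a membrane-bound transcription factor of secretory cells, MYO15B at 0.37 and KIF20B at 0.38, a kinesin of cell division. CREB3L1 had 2.84 ± 0.568 CPM in AG-120 plus Nutlin cells, 3.14 ± 1.67 in vehicle plus Nutlin cells, 20.9 ± 1.43 in AG-120 cells and 19.8 ± 1.85 in vehicle cells (SD, n = 3). As for MUC1, all libraries with Nutlin were low and all without it were high.

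**Figure D4:**
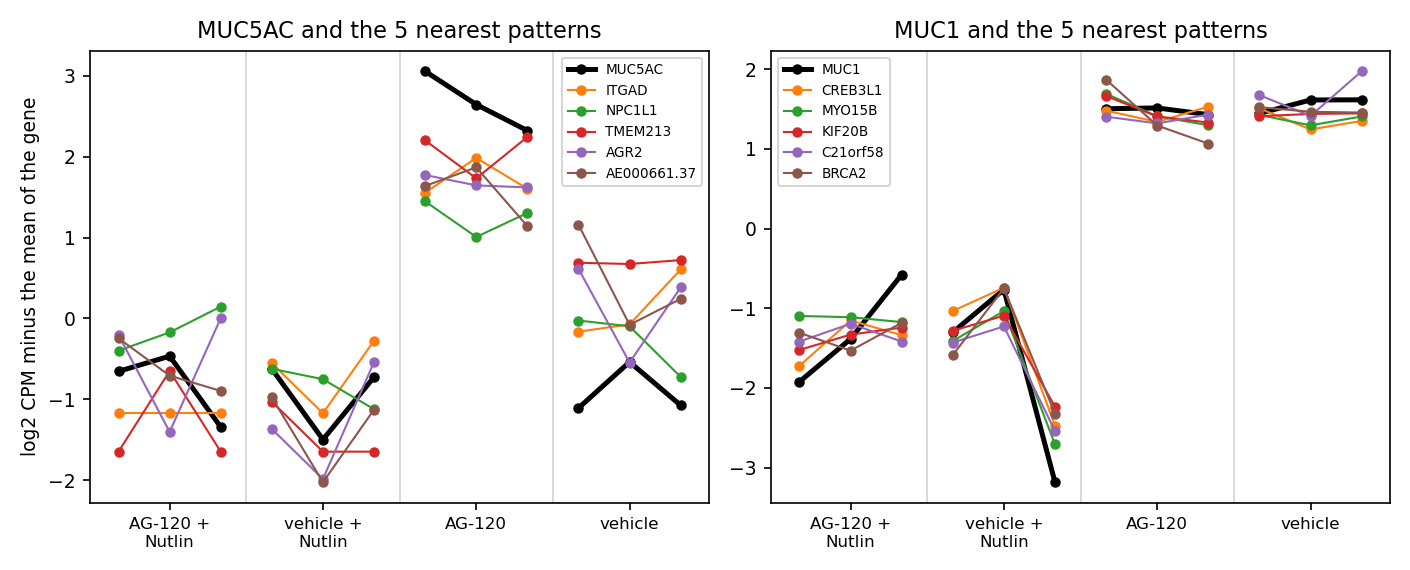
Log2 CPM of each gene minus its own mean over the 12 libraries, for MUC5AC (left) and MUC1 (right) in black and the 5 genes with the nearest pattern in colour, with lines joining the replicates of a group, whose order has no meaning. MUC5AC itself is higher in every AG-120 library than in the other 9, while some of its nearest patterns, such as TMEM213 and AE000661.37, are also higher in vehicle libraries than with Nutlin. MUC1 and its nearest patterns are higher in all libraries without Nutlin.

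Other mucins moved in both directions with Nutlin. Of the 14 listed, 13 were in the table and 6 were tested. In vehicle cells 2 rose, 1 fell and 3 were not called, with a median log2 difference of 0.79 against -0.02 over all genes. In AG-120 cells 4 rose, 1 fell and 1 was not called, with a median of 1.04 against 0.00. Calls over all genes tested were 26.8% higher and 27.1% lower in vehicle cells, and 27.0% higher and 28.8% lower in AG-120 cells. MUC19, a gel-forming mucin of salivary glands, rose: it had 78, 100 and 56 counts in AG-120 plus Nutlin cells and 54, 106 and 8 in vehicle plus Nutlin cells. It had 0, 0 and 1 counts in AG-120 cells and 0, 0 and 2 in vehicle cells, so that no library with Nutlin overlapped one without. The ratio was 95.02 in vehicle plus Nutlin over vehicle cells (95% counting interval 25.9 to 791, edgeR adjusted p = 0.00041) and 272 in AG-120 plus Nutlin over AG-120 cells (48.4 to 10800, adjusted p = 0.000164).

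MUC2, the gel-forming mucin of the intestine and a neighbour of MUC5AC, had 45, 71 and 53 counts in AG-120 plus Nutlin cells and 23, 50 and 1 in vehicle plus Nutlin cells. It had 13, 17 and 12 counts in AG-120 cells, against 17, 21 and 9 in vehicle cells. It rose in AG-120 cells with Nutlin (log2 2.20, SE 0.76, edgeR adjusted p = 0.0256), a call that ended without AG-120 plus Nutlin replicate 2 or 3 or any AG-120 library (adjusted p 0.0531 to 0.0846). In vehicle cells the log2 difference was 0.86 (SE 0.79, adjusted p = 0.380), and 1.48 (adjusted p = 0.0147) without vehicle plus Nutlin replicate 3. MUC3A, a membrane mucin of the intestine, fell in vehicle cells, with 1 count in vehicle plus Nutlin cells and 37 in vehicle cells (ratio 0.0306, 0.000754 to 0.181, edgeR adjusted p = 0.000569). It also fell in AG-120 cells, with 6 counts in AG-120 plus Nutlin cells and 30 in AG-120 cells (ratio 0.233, 0.0792 to 0.568, adjusted p = 0.0155). The second call ended without AG-120 plus Nutlin replicate 1 (adjusted p = 0.0650), without AG-120 replicate 3 (0.0704) and with no filter (0.0594). OVGP1, the oviduct glycoprotein, rose by 0.84 on the log2 scale in vehicle cells (SE 0.17, adjusted p = 0.00127). In AG-120 cells it rose by 0.45 (adjusted p = 0.0443), and the call ended without any AG-120 plus Nutlin or AG-120 library or without vehicle replicate 1 or 3 (0.0509 to 0.155), and also with DESeq2 size factors (0.0522), library totals (0.0700) and no filter (0.0734). MUC12, a membrane mucin of the intestine, rose by 1.63 in AG-120 cells (adjusted p = 0.0402), and that call ended without any AG-120 plus Nutlin library, AG-120 replicate 1 or 2, or vehicle replicate 1 (0.0532 to 0.138), with no filter (0.107) and without the 3 libraries that stand apart (log2 1.33, 0.117).

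Among the enzymes that begin O-glycans by adding GalNAc, more fell than rose with Nutlin. Of 20 listed, 12 were tested; 2 rose, 7 fell and 3 were not called in vehicle cells, and the same numbers held in AG-120 cells. Over all genes tested, 26.8% were called higher and 27.1% lower in vehicle cells, and 27.0% higher and 28.8% lower in AG-120 cells. The median log2 difference was -0.39 in vehicle cells and -0.46 in AG-120 cells. GALNT3 averaged 0.323 ± 0.158 CPM in AG-120 plus Nutlin cells, 0.457 ± 0.287 in vehicle plus Nutlin cells, 7.97 ± 1.12 in AG-120 cells and 6.66 ± 0.750 in vehicle cells (SD, n = 3). Its log2 difference with Nutlin was -3.92 (SE 0.37) in vehicle cells and -4.56 (SE 0.39) in AG-120 cells, with edgeR adjusted p of 1.49e-06 and 4.80e-07. GALNT1 and GALNT13 also fell, by 0.56 and 1.34 in vehicle cells and by 0.85 and 1.64 in AG-120 cells. GALNT11 rose, by 1.74 and 1.68.

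The enzymes that extend these chains were split. In vehicle cells 4 of 12 tested rose and 5 fell, and in AG-120 cells 3 rose and 6 fell, with median log2 differences of -0.36 and -0.40. All genes tested were called higher in 26.8% and lower in 27.1% of cases in vehicle cells, and in 27.0% and 28.8% in AG-120 cells. GCNT3, which branches mucin O-glycans, rose by 1.83 in vehicle cells and 1.65 in AG-120 cells on the log2 scale. ST6GALNAC2, a sialyltransferase, rose by 2.60 and 2.10. B3GNT3, which extends the core chain, fell by 2.11 and 1.93. CHST4, a sulfotransferase of mucin-type glycans, fell by 1.85 and 3.42, and these 8 calls had edgeR adjusted p of at most 1.50e-05.

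CHST4 was also the 1 pathway gene called between AG-120 plus Nutlin and vehicle plus Nutlin cells. It had 0.542 ± 0.0559 CPM in AG-120 plus Nutlin cells and 1.41 ± 0.453 in vehicle plus Nutlin cells (log2 -1.40, SE 0.29, edgeR adjusted p = 0.0265), where 1.93% of all genes tested were called lower. The call ended without any of the 3 AG-120 plus Nutlin libraries (adjusted p 0.0892, 0.147 and 0.120) and without vehicle plus Nutlin replicate 3 (0.0610) or vehicle replicate 3 (0.05003). It also ended with quality weights (0.0835) and in a fit of the groups compared alone (0.225). Without the 3 libraries that stand apart, which leaves 1 vehicle plus Nutlin library, the log2 difference was -1.16. Of the 30 other mucins, GalNAc transferases, mucus packaging genes and gastric pit genes tested, edgeR called 0 between AG-120 and vehicle cells, with or without Nutlin. Over all genes tested, 2.36% were called with Nutlin and 0.0510% without it, so nothing is read from the 0. At an unadjusted p under 0.05 there were 5 of the 30 with Nutlin and 6 without it, and DESeq2 called GALNT2 and SULT1C2 in each. SULT1C2, a gene of gastric pit cells that encodes a sulfotransferase, averaged 5.60 CPM in AG-120 plus Nutlin cells, 2.98 in vehicle plus Nutlin cells, 1.77 in AG-120 cells and 0.634 in vehicle cells. In edgeR it was called with Nutlin without vehicle plus Nutlin replicate 2 (log2 1.09, adjusted p = 0.0440), and without Nutlin when vehicle plus Nutlin replicate 3 was left out of the fit (log2 1.43, adjusted p = 0.0145) or the 3 libraries that stand apart were (log2 1.55, 0.00219). With no filter edgeR called it in both (0.0368 with Nutlin and 0.0208 without), as did limma with quality weights (0.0416 and 0.00236).

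Genes of mucus packaging and secretory cells showed both directions. Of 9 tested, 2 rose and 3 fell in vehicle cells, and 3 rose and 3 fell in AG-120 cells, with median log2 differences of 0.13 and -0.10. These counts lie near the shares over all genes, 26.8% higher and 27.1% lower in vehicle cells and 27.0% higher and 28.8% lower in AG-120 cells. SPDEF, the transcription factor of goblet cell maturation, had 0.342 ± 0.214 CPM in AG-120 plus Nutlin cells, 0.404 ± 0.128 in vehicle plus Nutlin cells, 10.1 ± 1.64 in AG-120 cells and 7.55 ± 1.65 in vehicle cells (SD, n = 3). It fell by 4.24 (SE 0.33) in vehicle cells and fell by 4.89 (SE 0.34) in AG-120 cells on the log2 scale, with edgeR adjusted p of 2.38e-07 and 7.14e-08. KIAA1324, a membrane protein of secretory cells, rose by 2.10 and 2.43. FCGBP, a secreted protein that binds mucins in mucus, rose by 2.07 in AG-120 cells (SE 0.42, adjusted p = 0.00105), and in vehicle cells its difference was 0.91 (adjusted p = 0.0827) and 1.33 (adjusted p = 0.000546) without vehicle plus Nutlin replicate 3. In vehicle cells FCGBP was also called by DESeq2 (adjusted p = 0.0474), by edgeR with no filter (0.00309) and by limma with quality weights (0.000263). TFF3 and AGR3 were listed at 0 counts in all 12 libraries.

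Because MUC5AC marks gastric pit cells, 11 genes of those cells were examined, of which 3 were tested. Their summed level was 12.5 to 13.4 CPM in AG-120 plus Nutlin libraries, 6.20 to 13.3 in vehicle plus Nutlin libraries, 3.26 to 4.52 in AG-120 libraries and 2.66 to 4.47 in vehicle libraries. The ranges of AG-120 and vehicle libraries, which MUC5AC separated, overlapped for this sum, but not for each tested gene. SULT1C2 was higher in every AG-120 library (1.46, 2.06 and 1.79 CPM) than in every vehicle library (0.602, 0.509 and 0.791). PSCA, with few counts, was lower in every AG-120 library (0, 0.098 and 0.158 CPM) than in every vehicle library (0.301, 0.170 and 0.413), and VSIG1 overlapped. None of these 3 was called by edgeR between AG-120 and vehicle cells, where 0.0510% of all genes tested were called. With Nutlin, 2 of the 3 tested rose in vehicle cells and all 3 did in AG-120 cells. Of all genes tested, 26.8% and 27.0% were called higher in these 2 responses. VSIG1, a junction protein of the stomach, rose by 2.05 and 2.30 on the log2 scale, and SULT1C2 rose by 2.18 and 1.66. PSCA, a surface protein of stomach and bladder, rose by 2.38 in AG-120 cells (adjusted p = 0.0197), a call that ended without AG-120 plus Nutlin replicate 3 (0.0940), without AG-120 replicate 1 (0.0612) or without the 3 libraries that stand apart (log2 1.75, 0.0518). TFF1, the trefoil peptide made beside MUC5AC in stomach, had at most 3 counts in a library.

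Markers of other cell types moved with Nutlin beside these results. The fibroblast list summed to 2.47 to 3.21 CPM in AG-120 plus Nutlin libraries, 3.25 to 5.77 in vehicle plus Nutlin libraries, 40.8 to 45.5 in AG-120 libraries and 38.0 to 42.3 in vehicle libraries, and its defining markers DCN and LUM were at 0 in all 12. All 3 tested fibroblast markers fell in each Nutlin response, where 27.1% of all genes tested were called lower in vehicle cells and 28.8% in AG-120 cells. The leukocyte list summed to 0.394 to 0.844 CPM in AG-120 plus Nutlin libraries, 0 to 0.641 in vehicle plus Nutlin libraries, 2.06 to 4.33 in AG-120 libraries and 3.11 to 5.43 in vehicle libraries. CSF1R, its 1 tested gene, fell in each Nutlin response. The endothelial list reached at most 1.15 CPM in any library, and VWF, its 1 tested gene, was not called by edgeR in either Nutlin response. In AG-120 cells VWF lay at the threshold (log2 1.77, edgeR adjusted p = 0.05001), and it was called by DESeq2 (0.0359), with quality weights (0.0168) and without the 3 libraries that stand apart (0.0202). Of the 8 epithelial markers, 1 rose and 4 fell in each Nutlin response. The shares of all genes tested called higher were 26.8% in vehicle cells and 27.0% in AG-120 cells, and those called lower were 27.1% and 28.8%. The part of these markers in the mucin values was not tested, and in bulk RNA fewer cells that make a mucin and less of its RNA per cell cannot be told apart.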

How the data were processed

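The authors deposited raw read counts per gene for 12 poly(A) RNA libraries, with no normalization. Per the submitters' processing notes, Partek, STAR, HTSeq and DESeq2 were used with the build hg19, and the versions, the annotation and the use of strand are not given in the sources used here. Libraries were grouped by the treatment labels. The 8 members, the gene lists and the tests were chosen with earlier results of these data known. Counts were fitted in R 4.3.3 with edgeR 4.0.16: filterByExpr (minimum count 10) left 15691 genes, libraries were scaled by TMM, and the 12 libraries entered 1 quasi-likelihood model of the 4 groups. Benjamini-Hochberg adjustment ran over all genes tested in each of 5 comparisons, and calls were made up to an adjusted p of 0.05. The fit was tested on simulated data. Levels per kilobase used the longest coding transcript of GENCODE. Named genes are the 8 members, up to 4 genes of each list with the smallest adjusted p, and the 5 nearest patterns to MUC5AC and to MUC1, of which the first 3 are given for MUC1. Floors are 3 counts over a group, and 95% intervals are exact binomial intervals of the ratio of summed counts. The intervals cover counting error only, and a fold over a floor leaves out the counting error of the higher group. Without molecular identifiers, reads are not independent molecules. Alternatives were no filter, DESeq2 1.42.0, library totals, DESeq2 size factors, at least 1 CPM in 3 libraries, a replicate block, a fit of the groups compared alone, each library left out, the 3 libraries that stand apart left out, and limma 3.58.1 voom with sample quality weights.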

Additional observations from a re-analysis of the deposited data

Results flagged for a closer look

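Of the tested members other than MUC5AC and the genes named from the lists, KRT7 and PDGFRB were flagged. For them edgeR called the difference between the Nutlin responses (adjusted p of at most 0.05). For MUC5AC the difference was -3.67 on the log2 scale. That value contains the comparison for which the gene was chosen, so it is given as a description only, with no p-value. KRT7, a keratin of bile duct epithelium, fell more with Nutlin in AG-120 cells (log2 -1.83) than in vehicle cells (log2 -0.66), a difference of -1.18 with an edgeR adjusted p of 0.00647. PDGFRB, a receptor among the fibroblast markers, had a difference of -1.23 (log2 -3.82 in AG-120 cells and -2.59 in vehicle cells, adjusted p = 0.0306), a call that ended without any AG-120 plus Nutlin or vehicle library, vehicle plus Nutlin replicate 2 or AG-120 replicate 3 (adjusted p 0.0539 to 0.110). This difference was called for 0.363% of all genes tested.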

How the results depend on the processing

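MUC1 and MUC13 kept their calls in both Nutlin responses under every alternative, while counts of called genes moved with the settings. Between AG-120 plus Nutlin and vehicle plus Nutlin cells, where 371 genes were called, DESeq2 called 877, no filter 1272, a fit of these groups alone 15, the set without the 3 libraries that stand apart 1374, quality weights 979, and leaving out 1 library 61 to 1037. Between AG-120 and vehicle cells, where 8 were called, DESeq2 called 110, no filter 104, the filter of 1 CPM 13, the groups alone 29, the set without the 3 libraries 908, quality weights 919, and leaving out 1 library 1 to 241. For the difference between the Nutlin responses, where 57 were called, DESeq2 called 211, no filter 283, the set without the 3 libraries 637, quality weights 433, and leaving out 1 library 23 to 243. The set without the 3 libraries leaves 1 vehicle plus Nutlin library, which is assumed to vary like the others. COL1A1 had a log2 difference of 0.09 (SE 0.52, edgeR adjusted p = 0.942) between AG-120 plus Nutlin and vehicle plus Nutlin cells, and -1.07 in that set. Without vehicle plus Nutlin replicate 1 it was 1.41 (edgeR adjusted p = 0.0189). COL1A1 had 40, 5 and 10 counts in vehicle plus Nutlin replicates 1, 2 and 3. The causes were not tested.

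The replicate number as a block called 211 genes in AG-120 with Nutlin, 4 in AG-120 without Nutlin and 32 for the difference. Under it the calls of CHST4 in AG-120 with Nutlin (adjusted p = 0.0502) and of PDGFRB for the difference (0.0637) ended. Same-numbered samples correlated between -0.224 and 0.116, with 1 of 18 pairs over 0.1, so the samples share only a number. Depth limits MUC4, MUC5B, MUC6, MUC16 and MUC20, which summed to at most 14 counts over all libraries.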

Other observations

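Beside the mucins, KRT7 stood at 482 ± 10.0 CPM in AG-120 plus Nutlin cells and 957 ± 112 in vehicle plus Nutlin cells (SD, n = 3), a log2 difference of -0.99 with an edgeR adjusted p of 0.000899. The surface proteins of epithelial junctions CDH1 and EPCAM fell with Nutlin, with log2 differences of -2.16 and -1.82 in AG-120 cells and -1.66 and -1.48 in vehicle cells. TOLLIP, the tested gene beyond MUC5B on chromosome 11, rose with Nutlin by 1.30 in AG-120 cells and 1.18 in vehicle cells, with edgeR adjusted p of 1.25e-07 and 3.49e-07.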
